A study of Mus musculus with 8 samples.

Results

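The genes described are Trp53, which encodes the transcription factor p53, and 9 of its known target genes: Cdkn1a, Mdm2, Ccng1, Phlda3, Trp53inp1, Bax, Sesn2, Aen and Zmat3. They are listed by name, as targets of a factor that the phosphatase Wip1 acts on; the list was drawn up with earlier results of these data known. All 10 were found among the 55418 gene symbols of the deposited counts, each on 1 line, and all 10 passed the filter on low counts that left 17522 genes for testing. The tissue was distal colon, and the mice were C57BL/6 and 8 to 10 weeks old. Wild-type (WT) mice and mice labelled NAIL-ΔNFκB, here ΔNFκB, were either left untreated or given DSS (dextran sulfate sodium, which injures the colon epithelium) at 3% for 4 days and then plain water for 4 days. NAIL is a long noncoding RNA; the labels do not state which bases of its locus the ΔNFκB line lacks or how many founders it came from. Each of the 4 groups had 2 libraries, numbered 1 and 2 in the labels without a statement that each is a separate mouse, so the p-values measure the spread between these libraries.

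p53 is held at low levels in unstressed cells, chiefly because Mdm2, a ubiquitin ligase that p53 itself induces, marks it for degradation. Kinases of the DNA damage response such as Atm and Chek2 phosphorylate p53 and free it from Mdm2, and Wip1, the product of Ppm1d, removes such phosphates and is itself induced by p53. Active p53 raises genes of cell cycle arrest, cell death, DNA repair and metabolism, and in the intestine it acts in crypt cells after irradiation and other injury. The counts measure transcripts, so they show neither the amount nor the phosphorylation of the p53 protein.

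Total counts per library ran from 9229861 to 16935961. Sex was read from Y-linked transcripts and was uneven: both untreated ΔNFκB libraries and untreated WT replicate 2 were male (219 to 240 CPM summed over 4 Y-linked genes) and the other 5 were female (0 to 0.209 CPM). Sex therefore cannot be told apart from DSS in the ΔNFκB mice except through the untreated WT pair, whereas the DSS groups were all female. A term for sex is set by that pair alone, the only group with both sexes. CPM is a gene's counts per 1000000 counts of its library, after scaling by TMM factors, which adjust for the composition of each library. Levels are group means ± SD with n = 2, and differences are log2 fold changes ± SE from 1 edgeR quasi-likelihood fit of all 8 libraries. A gene was said to rise or fall where its Benjamini-Hochberg adjusted p over all genes tested was under 0.05. In bulk tissue, fewer cells of a type and less RNA per cell cannot be told apart.

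Promoter windows of 300 bases (250 before and 50 after an annotated start) from RefSeq, build GRCm38.p6, were matched by symbol for 8 of the 10 genes, with 10 windows in all. They were searched for exact matches to the consensus p53 half-site, a 10-base palindrome that reads alike on both strands. Half-sites stood in 7 of these 10 windows and in 8.36% of the 32851 windows of all genes. Since the genes were listed as p53 targets, this share describes the list and tests nothing. A pair of half-sites at most 13 bases apart stood in 24 windows of all genes (0.0731%), and 1 of these was the upstream window of Cdkn1a. Printed below are the window of the gene with that pair (Cdkn1a, plus strand, chr17:29090729-29091028) and that of Ccng1 (minus strand, chr11:40755237-40755536). Ccng1 had 1 half-site, and its level fell with DSS in WT mice. Also printed is the window of Phlda3 (plus strand, chr1:135765835-135766134), which held no whole half-site. The last bases of the Phlda3 window match the start of a half-site, and a site cut by the window edge could not be counted. Each is written 5′ to 3′ along the gene's strand, with half-sites in capitals.
Cdkn1a: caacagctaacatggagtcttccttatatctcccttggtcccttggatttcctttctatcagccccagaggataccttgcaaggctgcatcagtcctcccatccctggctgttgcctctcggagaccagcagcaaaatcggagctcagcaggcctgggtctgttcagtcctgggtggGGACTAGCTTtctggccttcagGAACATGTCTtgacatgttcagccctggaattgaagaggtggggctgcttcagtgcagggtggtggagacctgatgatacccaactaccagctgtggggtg
Ccng1: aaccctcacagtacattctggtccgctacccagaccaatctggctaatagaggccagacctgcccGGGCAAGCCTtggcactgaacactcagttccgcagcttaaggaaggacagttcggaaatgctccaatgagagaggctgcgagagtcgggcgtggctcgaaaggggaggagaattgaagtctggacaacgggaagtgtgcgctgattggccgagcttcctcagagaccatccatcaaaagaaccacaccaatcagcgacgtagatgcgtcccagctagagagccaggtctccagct
Phlda3: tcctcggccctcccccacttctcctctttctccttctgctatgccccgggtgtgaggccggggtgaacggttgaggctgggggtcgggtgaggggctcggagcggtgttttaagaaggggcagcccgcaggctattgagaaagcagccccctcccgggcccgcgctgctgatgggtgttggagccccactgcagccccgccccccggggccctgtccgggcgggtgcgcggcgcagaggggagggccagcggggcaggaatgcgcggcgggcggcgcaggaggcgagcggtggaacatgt

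In the Cdkn1a window the half-sites start 73 and 51 bases before the annotated start and are separated by 12 bases. The other Cdkn1a window, at the downstream start (chr17:29093519-29093818), held no half-site, and counts per gene do not separate transcripts from the 2 starts. The Ccng1 half-site starts 185 bases before the start. Single half-sites were also found for Trp53, Mdm2, Bax and Aen; a match is a description of letters and not evidence of binding.
Trp53, 75 bases before the start: GGACTTGCCC
Mdm2, 186 bases before the start: GAACTTGCCT
Bax, 201 bases before the start: AGGCAAGCTT
Aen, 121 bases before the downstream of 2 starts: GGGCTTGTCC

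Per kilobase of exon, Cdkn1a had the highest median level of the 10 genes over the 8 libraries, at 48.1 CPM per kb, and Phlda3 the lowest, at 2.53 CPM per kb. Between them stood Ccng1 (27.4), Trp53inp1 (17.9), Mdm2 (9.39), Bax (7.14), Trp53 (7.06), Zmat3 (3.60), Aen (3.14) and Sesn2 (2.55), all as median CPM per kb. Neighbours in this order overlapped in their ranges over libraries, except that every Trp53 value (6.04 to 8.43 CPM per kb) lay above every Zmat3 value (2.60 to 3.81 CPM per kb). On the log2 CPM scale, the distance from the lowest to the highest library was smallest for Bax (0.36) and Trp53 (0.48) and largest for Cdkn1a (1.70) and Phlda3 (2.09). Phlda3 was also the gene with the fewest reads, 14 to 84 per library.

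Across the 4 groups the genes called among the 10 did not all move in the same direction. With DSS in WT mice Ccng1 fell and Aen rose, where 36% of all genes tested were called. In ΔNFκB mice Trp53inp1 and Phlda3 fell and Aen rose, against 35.4% of all genes. After DSS, Cdkn1a was 2.51-fold higher and Phlda3 lower in ΔNFκB than in WT mice, against 20% of all genes. Some of these calls were lost when 1 library was left out, as given for each gene below. Trp53, Mdm2, Bax, Sesn2 and Zmat3 passed the edgeR test in none of the 5 comparisons.

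**Figure D1:**
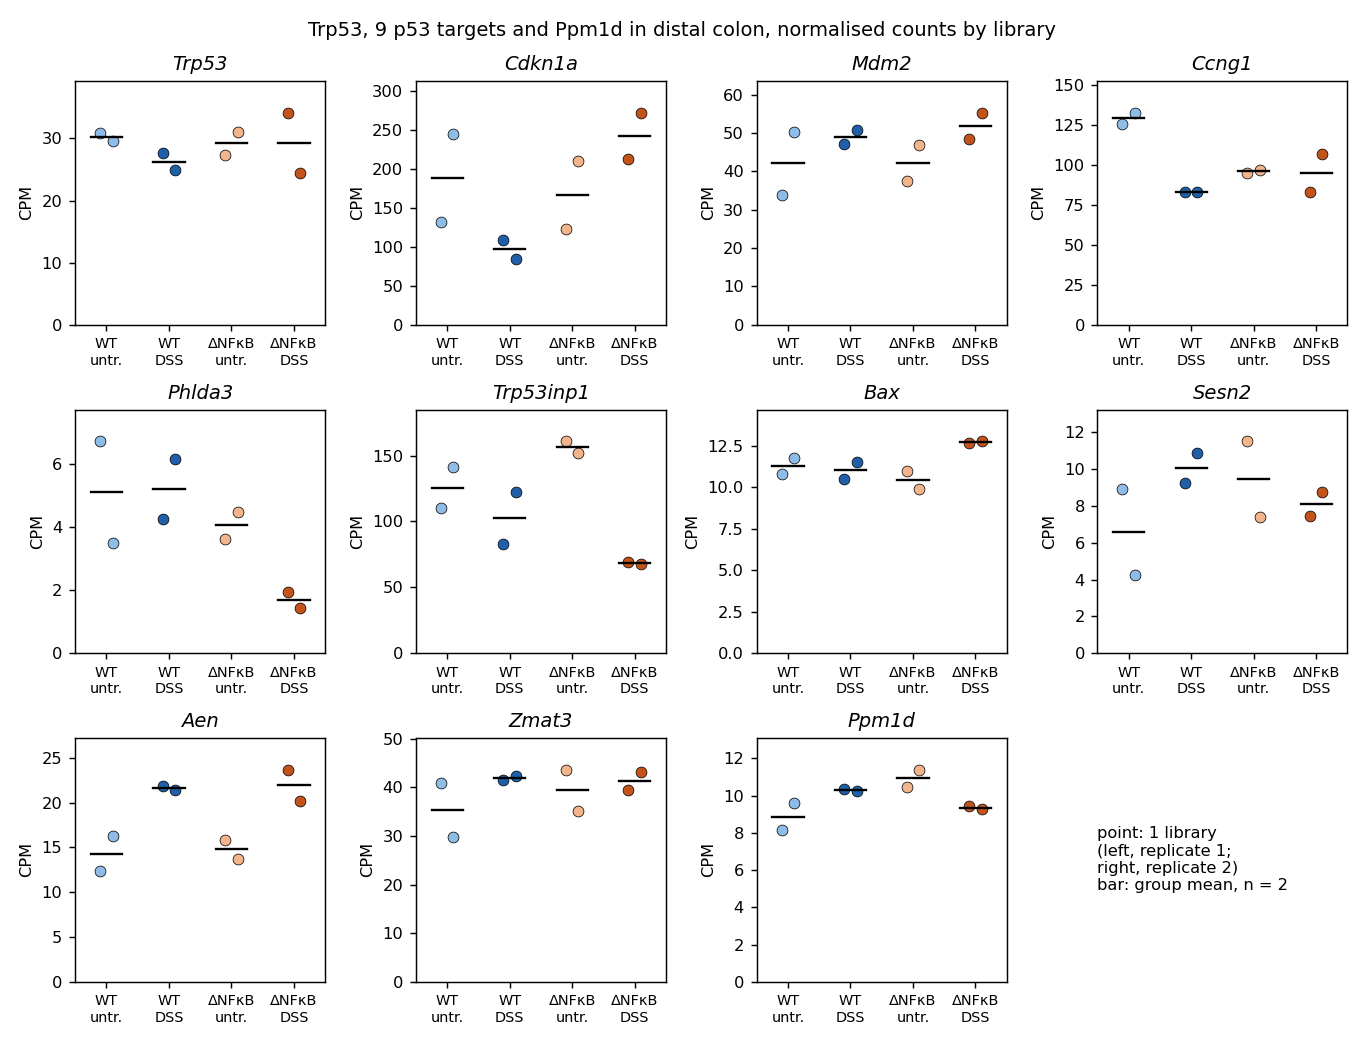
Normalised counts (CPM, linear axis from 0) of the 10 genes and Ppm1d in each library, by group; points are libraries and black bars group means of 2. Cdkn1a was 213 and 272 CPM in the DSS-treated ΔNFκB libraries against 109 and 83.9 CPM in the DSS-treated WT libraries, whereas Trp53 stayed between 24.4 and 34.1 CPM in all 8.

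Trp53 (ENSMUSG00000059552, chromosome 11, 69580359 to 69591873 on the plus strand of mm10) stood at 30.8 and 29.5 CPM in the untreated WT libraries, 27.6 and 24.9 in DSS-treated WT, 27.3 and 31.1 in untreated ΔNFκB and 34.1 and 24.4 in DSS-treated ΔNFκB. The DSS-treated WT libraries were below both untreated WT ones, and the DSS-treated ΔNFκB pair held both the highest and the lowest of the 8 values. Its DSS effect was -0.20 ± 0.17 in WT mice (95% interval -0.59 to 0.19, adjusted p 0.385) and 0.0046 ± 0.17 in ΔNFκB mice (-0.39 to 0.40, adjusted p 0.985), and the genotypes differed after DSS by 0.16 ± 0.17 (-0.24 to 0.55, adjusted p 0.554).

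Mdm2, the ligase that degrades p53, was at 33.9 and 50.3 CPM in untreated WT, 47.1 and 50.6 in DSS-treated WT, 37.4 and 46.8 in untreated ΔNFκB and 48.4 and 55.2 in DSS-treated ΔNFκB. The WT groups overlapped, and both DSS-treated ΔNFκB libraries were above both untreated ΔNFκB ones. Its DSS effects were 0.21 ± 0.19 and 0.30 ± 0.20 in WT and ΔNFκB mice (adjusted p 0.415 and 0.265), neither past the test. With a term for sex the second became 0.87 ± 0.24 (adjusted p 0.0454). That term is set by the untreated WT pair alone, at 33.9 CPM in the female and 50.3 CPM in the male library.

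Ppm1d, which encodes Wip1, was not one of the 10 and was read beside them. Its level was 8.87 ± 1.02 CPM in untreated and 10.3 ± 0.0546 CPM in treated WT mice, and 10.9 ± 0.636 and 9.35 ± 0.106 CPM in ΔNFκB mice. Its DSS effect was 0.21 ± 0.17 in WT mice and -0.23 ± 0.17 in ΔNFκB mice, and the genotypes differed by 0.30 ± 0.17 without DSS and by -0.14 ± 0.17 after it (adjusted p 0.351, 0.336, 0.416 and 0.602). No comparison of Ppm1d passed the test, and the DSS effects differed by -0.44 (95% interval -0.99 to 0.11).

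The DSS effect in WT mice asks how these genes respond to colitis with an unaltered NAIL locus. Of the 10 genes, 1 rose and 1 fell, against 17.2% and 18.8% of all genes tested, 36% in all. The median log2 fold change was 0.00073 over the 10 genes and 0.0024 over all genes, and the groups did not overlap for 6 of the 10 (71.4% of all genes). The share of the 10 genes called was not above that of all genes.

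Ccng1 (ENSMUSG00000020326, chromosome 11, 40748552 to 40755311, minus strand) encodes cyclin G1, which guides a phosphatase to Mdm2. It was at 126 and 133 CPM in the untreated WT libraries, 83.1 and 83.5 in DSS-treated WT, 95.1 and 97.3 in untreated ΔNFκB and 83.1 and 107 in DSS-treated ΔNFκB. The untreated WT pair was the highest of all, and every other library lay below it. In WT mice it fell by 0.63 on the log2 scale (SE 0.13, adjusted p 0.00746), a fold of 0.644, and it stayed past the test without each of the 4 WT libraries in turn (adjusted p 0.0186 to 0.0480). Epithelial markers fell alongside it: 7 of 10 were lower, from sums of 11630 to 14490 CPM to 8171 to 8766 CPM. Per 1000 CPM of those markers Ccng1 read 10.8 and 9.17 in untreated WT and 9.48 and 10.2 in DSS-treated WT; the part of these markers in the fall of Ccng1 was not tested.

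Aen (ENSMUSG00000030609, chromosome 7, 78895854 to 78911209, plus strand) encodes a nuclease that promotes apoptosis. Its levels were 12.4 and 16.2 CPM in untreated WT, 21.8 and 21.4 in DSS-treated WT, 15.8 and 13.8 in untreated ΔNFκB and 23.7 and 20.2 in DSS-treated ΔNFκB. All 4 DSS libraries were above all 4 untreated ones. It rose by 0.59 ± 0.18 in WT mice and by 0.57 ± 0.18 in ΔNFκB mice (adjusted p 0.0321 and 0.0385), and the 2 effects differed by -0.027 (95% interval -0.60 to 0.55). Both calls were narrow: with DESeq2 the adjusted p were 0.0699 and 0.0758, and of the 4 libraries behind each value leaving out 1 kept the call once in WT mice and never in ΔNFκB mice. Deposited Aen counts were not whole numbers in 6 of 8 libraries.

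Cdkn1a did not pass the test in WT mice, at -0.96 ± 0.34 (95% interval -1.73 to -0.19, adjusted p 0.0542), although both DSS libraries lay below both untreated ones. The untreated WT libraries differed widely, at 131 and 245 CPM. Without untreated WT replicate 1 the value was -1.32 (adjusted p 0.0162) and without replicate 2 it was -0.41 (adjusted p 0.354), and DESeq2 gave adjusted p 0.00437. With a term for sex, which here nearly repeats the fit without replicate 2, it was -0.44 (adjusted p 0.326).

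Sesn2, a sestrin that restrains mTORC1 under stress, was at 8.94 and 4.22 CPM in untreated WT and 9.27 and 10.9 in DSS-treated WT. Its value of 0.62 ± 0.36 (adjusted p 0.199) became 1.28 (adjusted p 0.0260) without untreated WT replicate 1, 0.21 (adjusted p 0.655) without replicate 2 and 0.17 (adjusted p 0.709) with a term for sex. Zmat3, an RNA-binding zinc finger protein, was at 35.4 ± 7.90 CPM untreated and 41.9 ± 0.620 CPM with DSS (0.25 ± 0.17, adjusted p 0.290). Bax, a pore-forming activator of apoptosis, differed by -0.034 (95% interval -0.40 to 0.33). It shares 12.2% of its exon bases with Gm45808 on the same strand.

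The DSS effect in ΔNFκB mice asks the same with the altered locus. Here 1 gene, Aen, rose and 2 fell, against 16.2% and 19.2% of all genes tested (35.4% in all), and groups did not overlap for 6 of 10 (71.7% of all genes). The median was 0.036 over the 10 genes and -0.038 over all.

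Trp53inp1 (ENSMUSG00000028211, chromosome 4, 11156431 to 11174379, plus strand) encodes a stress-induced protein that acts in p53 phosphorylation and autophagy. It read 110 and 141 CPM in untreated WT, 83.1 and 122 in DSS-treated WT, 161 and 152 in untreated ΔNFκB and 69.6 and 67.9 in DSS-treated ΔNFκB. The untreated ΔNFκB libraries were the highest of the 8 and the DSS-treated ΔNFκB libraries the lowest. It fell by 1.19 on the log2 scale in ΔNFκB mice (SE 0.19, fold 0.439, adjusted p 0.00245) and stayed past the test without each ΔNFκB library in turn (adjusted p 0.0137 to 0.0309). With a term for sex the value was -0.83 (adjusted p 0.0877). In WT mice it was -0.29 ± 0.19 (adjusted p 0.252).

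Phlda3 (ENSMUSG00000041801, chromosome 1, 135766119 to 135769136, plus strand) encodes a small protein that keeps the kinase Akt off the membrane. It was at 6.71 and 3.49 CPM in untreated WT, 4.25 and 6.13 in DSS-treated WT, 3.63 and 4.47 in untreated ΔNFκB and 1.95 and 1.44 in DSS-treated ΔNFκB. Only the DSS-treated ΔNFκB pair stood apart, below every other library. Phlda3 fell in ΔNFκB mice by 1.25 on the log2 scale (SE 0.41, fold 0.420, adjusted p 0.0438). The call was lost without any 1 of the 4 ΔNFκB libraries (values -1.47 to -1.03, adjusted p 0.0870 to 0.219) and with DESeq2 (0.0779) and limma-voom (0.0834). With a term for sex the value was -2.19 (adjusted p 0.0264).

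Markers of stromal cells fell in the same comparison. Of 6 fibroblast markers 4 were lower, and their sum went from 1485 and 1508 CPM to 680 and 537 CPM; of 6 endothelial markers 4 were lower, from 102 and 77.8 CPM to 31.8 and 23.9 CPM. Nerve and glia markers summed to 33.0 and 29.0 CPM without DSS and to 7.07 and 5.26 CPM with it. All 8 smooth muscle markers fell, from 5387 and 5582 CPM to 908 and 881 CPM. In WT mice they also fell, 8 of 8, from 6663 and 3355 CPM to 1279 and 1015 CPM. Fibroblast sums in WT mice were 1812 and 1071 CPM without DSS and 1798 and 2750 CPM with it. Endothelial sums were 100 and 80.5 CPM and 91.35 and 120 CPM, and nerve and glia sums 35.3 and 32.4 CPM and 34.3 and 43.4 CPM. Phlda3 differed by 0.036 ± 0.36 in WT mice (adjusted p 0.947). The part of these markers in the fall of Phlda3 was not tested.

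Cdkn1a in ΔNFκB mice was at 122 and 211 CPM untreated and 213 and 272 CPM with DSS, so the groups were apart by a small margin (0.54 ± 0.33, adjusted p 0.235). The value was 0.22 to 1.004 without 1 of these 4 libraries and 1.44 (adjusted p 0.0594) with a term for sex. Bax was at 10.4 ± 0.734 and 12.7 ± 0.0534 CPM (0.29 ± 0.16, adjusted p 0.199), and the DSS pair was the highest of the 8 libraries. Ccng1 (-0.016 ± 0.13), Zmat3 (0.067 ± 0.17) and Sesn2 (-0.22 ± 0.36) overlapped between untreated and DSS libraries; with a term for sex Sesn2 was at -1.30 (adjusted p 0.0817).

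**Figure D2:**
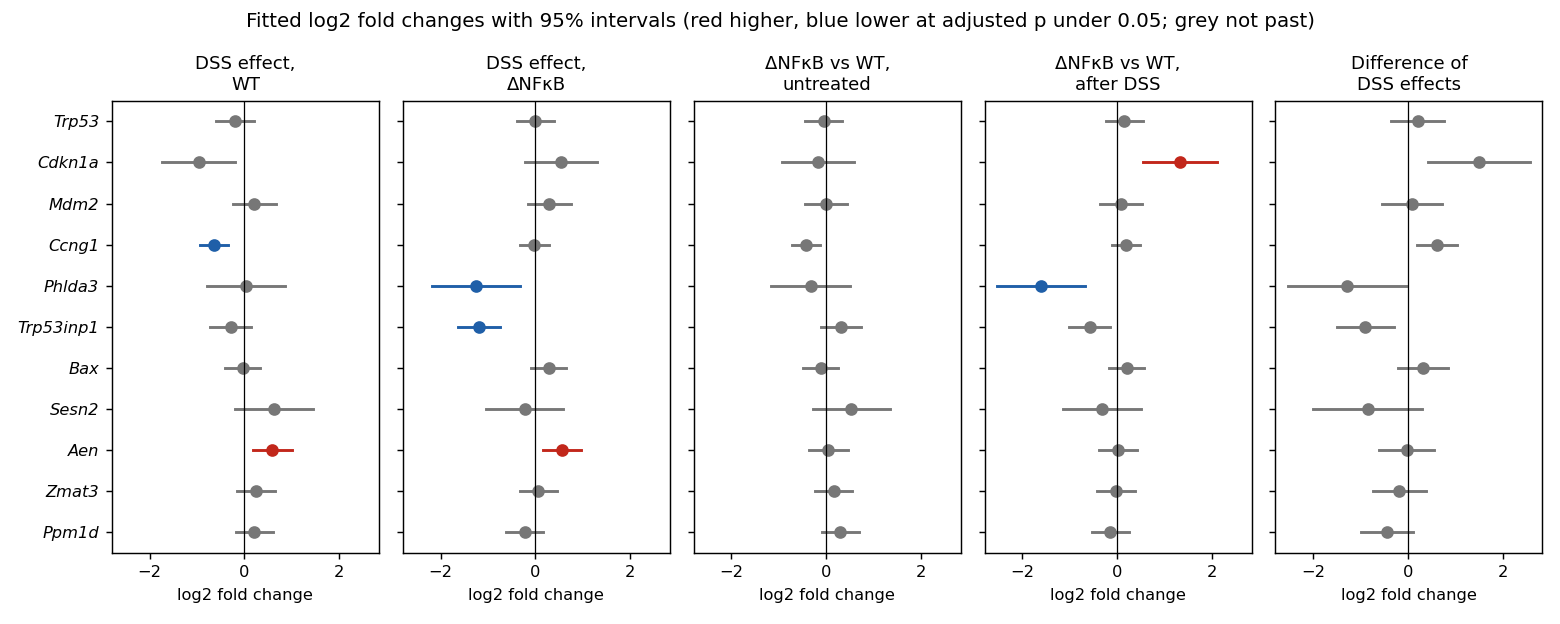
Fitted log2 fold changes (points) with 95% intervals (lines) for the 10 genes and Ppm1d in the 4 pairwise comparisons and in the difference of the DSS effects (ΔNFκB minus WT); colour marks adjusted p under 0.05. Cdkn1a lies at 1.33 and Phlda3 at -1.61 in the comparison of genotypes after DSS, and no gene is coloured in the untreated comparison.

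Without DSS, ΔNFκB mice were set against WT mice to ask what the altered locus does in uninjured colon. None of the 10 genes passed the edgeR test, against 0.388% of all genes, 0.0399% higher and 0.348% lower (1 of 10 at an unadjusted p under 0.05, against 16.2%; 0 with DESeq2 and with limma-voom). The gene at an unadjusted p of 0.0100 was Ccng1, at -0.43 ± 0.13 (adjusted p 0.193), with both ΔNFκB libraries below both WT ones. Groups were apart for 2 of 10 genes, Ccng1 and Trp53inp1 (0.32 ± 0.19, adjusted p 0.437), against 45.2% of all genes. Cdkn1a was at 188 ± 80.4 CPM in WT and 166 ± 62.4 CPM in ΔNFκB mice, with overlapping libraries and a 95% interval of the difference from -0.94 to 0.58.

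In the main fit of the untreated comparison 7 of 12 cycling cell markers were lower in ΔNFκB mice, against 0.348% of all genes. Their sums were 1176 and 1211 CPM in WT and 583 and 641 CPM in ΔNFκB libraries. These calls depend on the fit: with the replicate block and with the compared groups only, 0 genes of any kind were called. Both untreated ΔNFκB libraries were male, as was 1 of the 2 WT ones.

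After DSS, ΔNFκB mice were compared with WT mice, all 4 female. Of the 10 genes 1 was higher and 1 lower, against 8.32% and 11.7% of all genes tested (20% in all). At an unadjusted p under 0.05 there were 3 of 10, against 36.1% of all genes, and the groups were apart for 5 of 10 (68.1% of all genes). The median difference was 0.052 over the 10 genes and 0.028 over all.

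Cdkn1a (ENSMUSG00000023067, chromosome 17, 29090976 to 29100727, plus strand) encodes p21, the inhibitor of cyclin-dependent kinases through which p53 halts the cell cycle. After DSS it was at 96.6 ± 18.1 CPM in WT and 243 ± 41.6 CPM in ΔNFκB mice, 1.33 ± 0.34 on the log2 scale and 2.51-fold (adjusted p 0.0293). Both ΔNFκB libraries were above both WT libraries. The value was 1.12 to 1.55 without each of these 4 libraries, but none of the 4 fits kept the call (adjusted p 0.0646 to 0.179). An unnamed gene on the opposite strand, AC167363.2, covers 7.68% of its exon bases, and the strand setting of the counts is not given in the sources used here.

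Epithelial markers were also higher in ΔNFκB mice after DSS, in 5 of 10 cases, with sums of 8766 and 8171 CPM in WT and 11490 and 12010 CPM in ΔNFκB libraries. Per 1000 CPM of these markers Cdkn1a was 12.5 and 10.3 in DSS-treated WT and 18.6 and 22.6 in DSS-treated ΔNFκB; the part of these markers in the result was not tested. Of 12 cycling cell markers 9 were higher in the same comparison, and their sums were 863 and 795 CPM against 1313 and 1435 CPM. Transcripts of the cell cycle inhibitor and of cycling cells were thus both higher in the DSS-treated ΔNFκB libraries.

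Phlda3 was lower in ΔNFκB mice after DSS, at 1.70 ± 0.356 against 5.19 ± 1.33 CPM (-1.61 ± 0.41, fold 0.328, adjusted p 0.0285). Without each of the 4 libraries the value was -1.84 to -1.31 and the adjusted p 0.0502 to 0.178, and limma-voom gave 0.0566. All 6 fibroblast markers and 5 of 6 endothelial markers were also lower, with fibroblast sums of 1798 and 2750 CPM in WT and 680 and 537 CPM in ΔNFκB libraries; their part in the Phlda3 result was not tested. Trp53inp1 was at 103 ± 27.7 and 68.7 ± 1.17 CPM (-0.58 ± 0.19, adjusted p 0.0654), apart but not past the test, and DESeq2 gave adjusted p 0.0348. Mdm2 (0.083 ± 0.20), Aen (0.020 ± 0.18) and Zmat3 (-0.019 ± 0.17) overlapped between the genotypes.

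**Figure D3:**
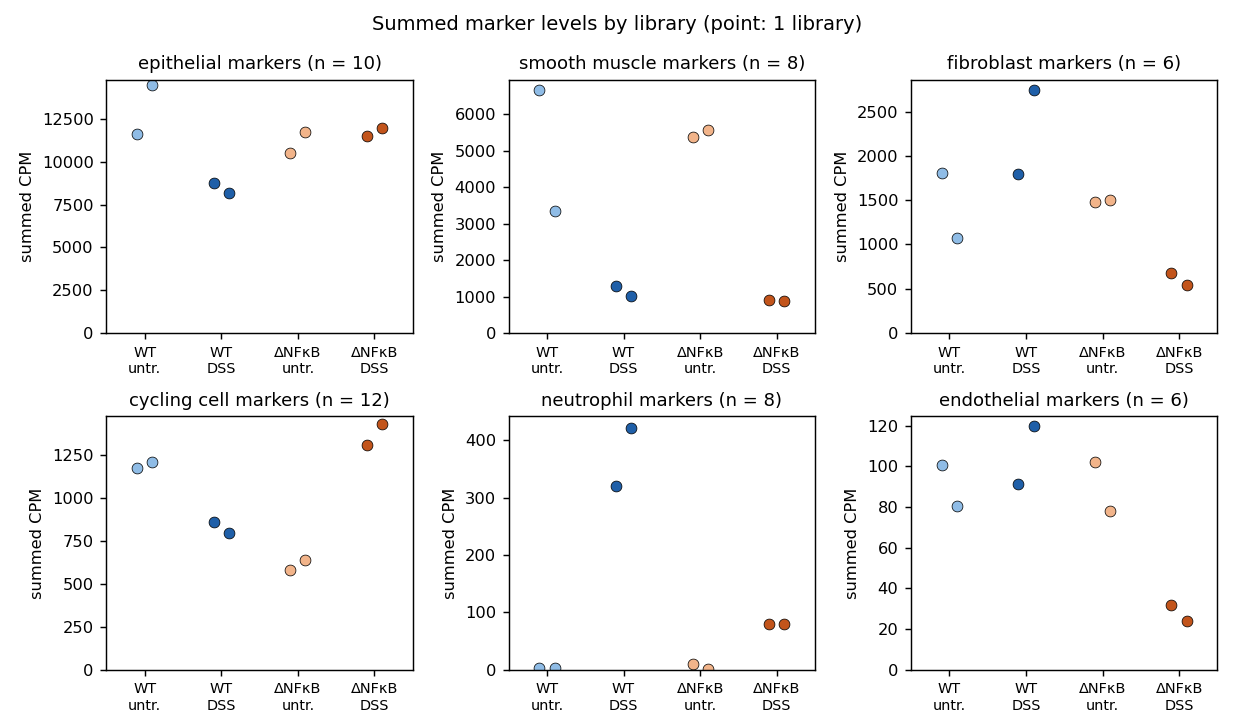
Summed CPM of 6 marker lists by library (points) and group, each on a linear axis from 0; n is the number of genes in a list. Cycling cell markers were 583 and 641 CPM in untreated ΔNFκB and 1313 and 1435 CPM in DSS-treated ΔNFκB libraries, and neutrophil markers were 320 and 421 CPM in DSS-treated WT against 78.9 and 79.7 CPM in DSS-treated ΔNFκB libraries.

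The difference of the DSS effects (ΔNFκB minus WT) tests directly whether the genotypes responded unlike. None of the 10 genes passed the edgeR test, against 17.7% of all genes tested (8.63% higher and 9.07% lower); 4 of 10 were at an unadjusted p under 0.05 (35% of all genes), DESeq2 called 2 and limma-voom 0. The 4 were Ccng1 (0.62 ± 0.18, adjusted p 0.0511), Trp53inp1 (-0.90 ± 0.27, adjusted p 0.0520), Cdkn1a (1.51 ± 0.47, adjusted p 0.0602) and Phlda3 (-1.29 ± 0.54, adjusted p 0.133). Cdkn1a and Ccng1 had positive and Trp53inp1 and Phlda3 negative differences, so the values nearest the threshold point both ways. With a term for sex, Cdkn1a (1.89, adjusted p 0.0175), Phlda3 (-1.83, adjusted p 0.0381) and Sesn2 (-1.47, adjusted p 0.0430) passed. Without untreated WT replicate 1 their values were 1.88, -1.84 and -1.49. These 2 results are not separate support. The sex term is set by the untreated WT pair, so for this contrast it nearly repeats leaving out replicate 1. Aen (-0.027), Mdm2 (0.087) and Zmat3 (-0.18) were nearer to 0, with 95% intervals of -0.60 to 0.55, -0.55 to 0.72 and -0.74 to 0.38.

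A further 47 genes of the p53 pathway were listed by role, of which 43 could be tested. In WT mice 3 rose and 9 fell with DSS, and in ΔNFκB mice 6 rose and 10 fell, with medians of -0.091 and -0.16. Over all genes tested 17.2% rose and 18.8% fell in WT mice and 16.2% rose and 19.2% fell in ΔNFκB mice, and the listed genes moved in both directions within each genotype. In the difference of the DSS effects 3 were higher and 2 lower, against 8.63% and 9.07% of all genes. Between genotypes none passed without DSS, against 0.388% of all genes, and 3 were at an unadjusted p under 0.05, against 16.2%. After DSS 1 was higher and 2 lower, against 8.32% and 11.7% of all genes. The higher one was Perp (0.58 ± 0.13, adjusted p 0.0213), a desmosome protein induced by p53, whose call was lost without any 1 of the 4 DSS libraries (adjusted p 0.0533 to 0.147). The lower ones were Sesn1 and Plk2, a polo-like kinase (-1.04 ± 0.26, adjusted p 0.0286); Plk2 kept its call without 1 of those 4 libraries and lost it with limma-voom (0.0553).

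Among genes of apoptosis, 2 of 10 rose in each genotype with DSS, near the share of all genes, and they were Apaf1, the scaffold of the apoptosome, and Pidd1, a death domain protein. Apaf1 was at 66.3 to 68.3 CPM in untreated WT and 123 to 132 in DSS-treated WT, and at 66.0 ± 11.2 and 126 ± 10.8 CPM in the ΔNFκB groups. It rose by 0.93 ± 0.14 in both genotypes (adjusted p 0.00190 in WT and 0.00160 in ΔNFκB mice), and stayed past the test without each compared library. Pidd1 rose by 1.01 ± 0.25 and 1.24 ± 0.24 (adjusted p 0.0156 and 0.00570). The call in WT mice was lost with DESeq2 (0.0697), with a term for sex (0.0589) and without untreated WT replicate 2 (0.0524) or DSS-treated WT replicate 1 (0.108); that in ΔNFκB mice was lost with a term for sex (0.0923). In the same list 4 of 10 fell in WT mice and 1 in ΔNFκB mice, against 18.8% and 19.2% of all genes.

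The antiproliferative gene Btg2, a cell cycle target, fell with DSS by 0.97 and 1.22 on the log2 scale in WT and ΔNFκB mice (SE 0.20 and 0.20, adjusted p 0.00813 and 0.00289). It went from 124 and 164 CPM to 87.0 and 60.3 CPM in WT libraries and from 121 ± 8.93 to 51.8 ± 6.76 CPM in ΔNFκB mice, with no overlap in either genotype. The call was lost in WT mice without DSS-treated WT replicate 2 (0.0537) and in ΔNFκB mice with a term for sex (0.101). Among 9 cell cycle targets, 0 rose and 2 fell in WT mice, and 2 rose and 3 fell in ΔNFκB mice, against 17.2% and 18.8% of all genes in WT and 16.2% and 19.2% in ΔNFκB mice. The risers in ΔNFκB mice included Gtse1, a p53-binding protein made in dividing cells, at 4.73 and 6.67 CPM untreated and 12.9 and 17.0 CPM with DSS (1.39 ± 0.23, adjusted p 0.00255; 1.29 and 0.0578 with a term for sex). All 12 cycling cell markers rose in the same comparison, with a median of 1.37, and their part in the Gtse1 result was not tested.

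Among metabolic and stress targets, Ephx1, an epoxide hydrolase, fell by 1.11 in WT and by 1.48 in ΔNFκB mice (SE 0.18 and 0.19, adjusted p 0.00282 and 0.000885). It was at 15.5 ± 2.06 CPM in untreated and 7.15 ± 0.535 CPM in treated WT mice. Both calls held without each compared library.

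Sesn1, a sestrin like Sesn2, moved in opposite directions. It rose with DSS in WT mice from 15.7 and 17.4 to 26.2 and 32.4 CPM (0.82 ± 0.20, adjusted p 0.0151) and fell in ΔNFκB mice from 17.4 and 20.8 to 11.6 and 8.14 CPM (-0.95 ± 0.21, adjusted p 0.00963). After DSS it was lower in ΔNFκB mice by 1.57 ± 0.21 on the log2 scale, a fold of 0.337 (adjusted p 0.00358). The difference of its DSS effects was -1.77 ± 0.29 (adjusted p 0.0102), past the test without each of the 8 libraries in turn (-2.03 to -1.55, adjusted p 0.0157 to 0.0487). Its separate DSS effects were less stable: the rise was lost without untreated WT replicate 1 (0.0555) or DSS-treated WT replicate 2 (0.0997), and the fall without untreated ΔNFκB replicate 2 (0.0613) or DSS-treated ΔNFκB replicate 2 (0.0838) and with a term for sex (0.158). Fibroblast, endothelial and nerve markers were lower in the same DSS-treated ΔNFκB libraries, and their part in the Sesn1 result was not tested.

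Of 5 repair and nucleotide targets 0 changed in WT mice (0 rose and 2 fell in ΔNFκB mice), against 36% and 35.4% of all genes called in either direction. One that fell was Xpc, which recognises damaged DNA, from 18.9 and 19.4 to 10.2 and 10.1 CPM (-0.91 ± 0.16, adjusted p 0.00332; 0.0552 with a term for sex). Of 11 regulators tested, 0 rose and 1 fell with DSS in WT mice, against 17.2% and 18.8% of all genes. In ΔNFκB mice 2 rose and 1 fell, against 16.2% and 19.2%. The regulator that fell in both was Atm, the kinase that activates p53 after DNA breaks. Atm fell by 0.69 in WT mice and by 0.41 in ΔNFκB mice (SE 0.12 and 0.12, adjusted p 0.00333 and 0.0256). It was at 79.8 to 86.9 CPM in the untreated WT and 49.3 to 54.1 CPM in the DSS-treated WT libraries. The call in WT mice held without each WT library; that in ΔNFκB mice held without 1 of the 4 ΔNFκB libraries only, and was lost with DESeq2 (0.0741) and with a term for sex (0.0924) and without a count filter (0.0561).

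**Figure D4:**
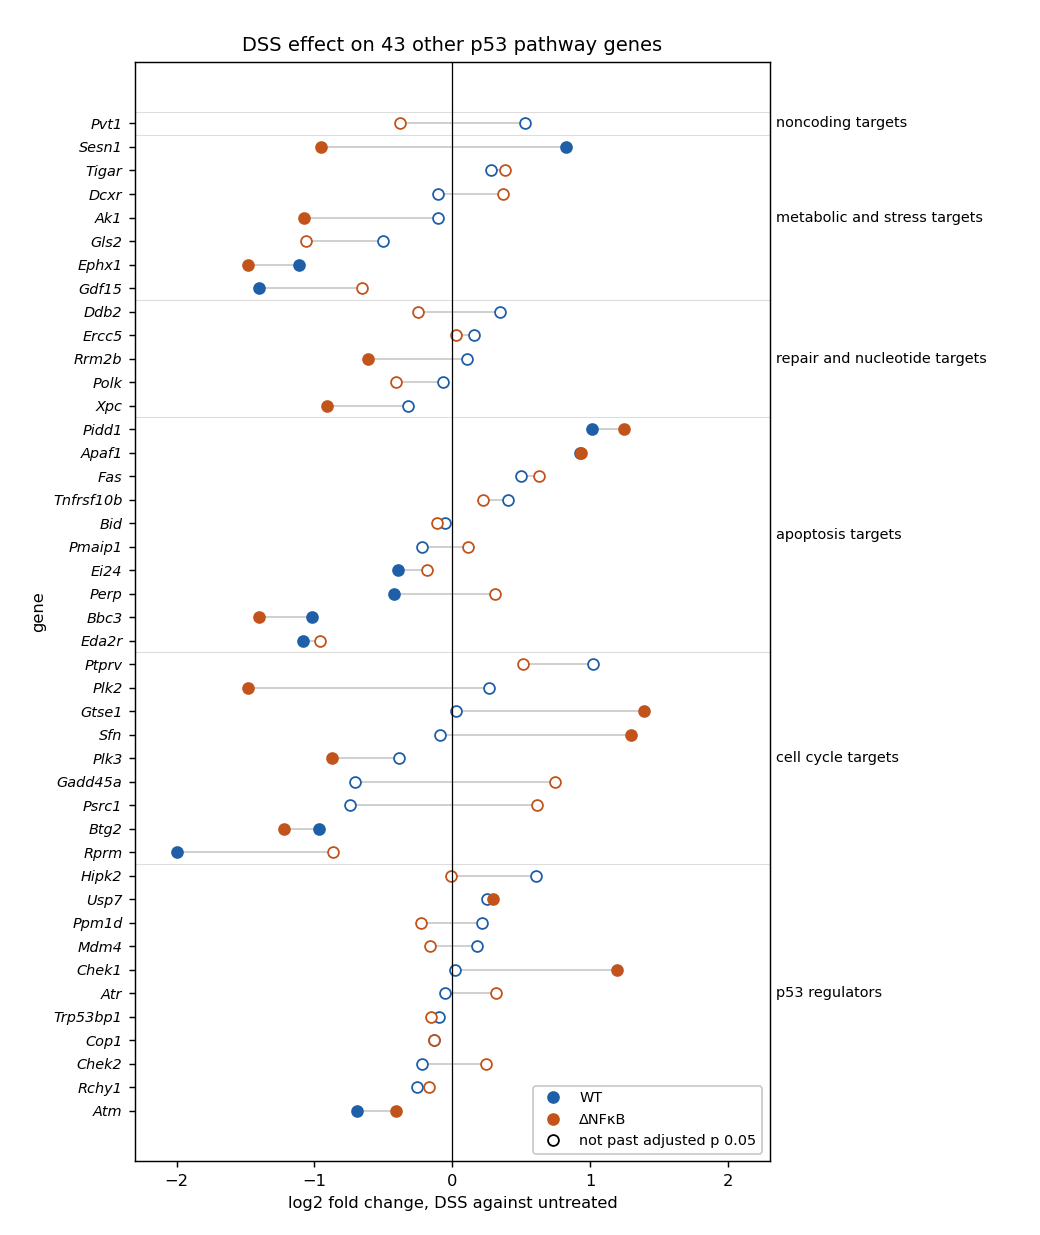
Log2 fold change with DSS (horizontal axis) of the 43 other p53 pathway genes tested, in WT (blue) and ΔNFκB mice (orange), grouped by role; filled points passed adjusted p 0.05 and grey lines join the 2 genotypes. Sesn1 lies at 0.82 in WT and -0.95 in ΔNFκB mice, whereas Apaf1 lies at 0.93 in both.

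Genes with the most similar pattern were sought by the root-mean-square distance between log2 CPM values centred over the 8 libraries, among 13886 other genes with a mean log2 CPM above 1. The nearest to Cdkn1a were Lrrc66 (0.196 log2 units), Pfkfb4 (0.211), Slc36a1 (0.212) and Gpr160 (0.213). Slc36a1, for example, read 163 and 246 CPM in untreated WT, 146 and 123 in DSS-treated WT, 117 and 211 in untreated ΔNFκB and 281 and 307 in DSS-treated ΔNFκB libraries, the same order of libraries in each pair as Cdkn1a. None of the other 9 p53 genes came close: the nearest, Ccng1, ranked 2919 of 13886, at 0.518 log2 units. The nearest to Trp53 were Bod1 (0.0544), Elp4 (0.0755), Dhx33 (0.0802) and Impdh2 (0.0807). Of the p53 targets Bax had the smallest distance to Trp53, ranked 1768 at 0.208 log2 units. The distance is not scaled by a gene's own range, so a gene that varies little can rank nearer without sharing the pattern. Bax varied little (0.359 log2 units). It did not follow Trp53 in the DSS-treated ΔNFκB libraries, where Bax was at 12.7 and 12.8 CPM and Trp53 at 34.1 and 24.4 CPM. The rank of Ccng1 for Cdkn1a has the same limit.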

How the data were processed

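Total RNA libraries (TruSeq, paired reads of 150 bp) of 8 distal colon samples were counted by the authors; HISAT2 2.1, SAMtools 1.8, featureCounts, Subread 1.6.2 and mm10 are named per the submitters' processing notes, with strand setting and annotation not given in the sources used here. Values in the deposited tables are unnormalized expected counts, 18.8% of those above 0 differing from a whole number; counts had been planned for, so these were rounded first, and the 115 symbols on more than 1 line summed.

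One edgeR 4.0.16 quasi-likelihood fit (R 4.3.3, filterByExpr, TMM, biological coefficient of variation 17.1%, 4 residual and 4.28 prior degrees of freedom) gave 2-sided tests of 5 contrasts, adjusted over 17522 genes. SE is the absolute log2 fold change over the square root of F, and 95% intervals use the same degrees of freedom. With 2 libraries a group, no exact permutation p can be under 0.333, and none is given. The members and lists were chosen with earlier results of these data known. Named pathway genes are up to 3 per direction and comparison by smallest p among those past 0.05. Gene models are GENCODE M21; all 55536 identifiers matched. Alternatives used RLE factors, DESeq2 1.42.0, limma 3.58.1 voom, no filter, CPM of at least 1 in 2 libraries, a replicate block, only the compared groups, a sex term (male above 5 CPM of Y-linked transcripts), removal of 1094 ribosomal RNA-like, mitochondrial, immunoglobulin and T cell receptor genes, and removal of each library; a group left with 1 library was assumed to vary like the others. For the pathway genes beyond the 10 they were added after seeing the data. In simulated data for the WT DSS effect over 17522 genes, 43% of 200 genes changed 2-fold and 94% of 200 changed 4-fold were recovered, with 6 and 11 false calls. The simulation gave every gene the same spread and changed only those 200, whereas 36% of all genes were called in the data. Its shares therefore need not hold for these libraries. Limits for counts of 0 cover the error of counting alone.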

Additional observations from a re-analysis of the deposited data

Results flagged for a closer look

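The test of the difference of DSS effects (edgeR, ΔNFκB minus WT, adjusted over all genes) called 3 of the 43 other pathway genes higher and 2 lower. Over all genes tested 8.63% were higher and 9.07% lower, 17.7% in all, and 0 of the 10 genes passed. The 5 genes below were named because they passed this test, so their passing says nothing more about the list. Sesn1 had a difference of -1.77 (adjusted p 0.0102), the only one of the 5 that held without each library in turn. The difference was -1.75 for Plk2, a polo-like kinase (adjusted p 0.0189); it was at 17.5 ± 0.704 and 21.0 ± 4.79 CPM in untreated and treated WT mice and at 28.4 ± 10.0 and 10.2 ± 0.0426 CPM in ΔNFκB mice. It was 1.46 for the growth arrest gene Gadd45a (adjusted p 0.0343), with 19.5 ± 5.18, 11.9 ± 3.31, 13.1 ± 2.95 and 22.0 ± 2.16 CPM in the same order of groups. Gtse1 had a difference of 1.37 (adjusted p 0.0252), from 11.4 and 10.7 to 10.6 and 11.8 CPM in WT mice and from 4.73 and 6.67 to 12.9 and 17.0 CPM in ΔNFκB mice. Perp, a p53-induced membrane protein of desmosomes, had a difference of 0.73 (adjusted p 0.0339), with 189 and 226, 165 and 145, 174 and 200, and 230 and 234 CPM. Without 1 library the adjusted p ranged from 0.0163 to 0.0809 for Plk2, 0.0181 to 0.110 for Gadd45a, 0.0290 to 0.102 for Gtse1 and 0.0163 to 0.123 for Perp. Of the 12 cycling cell markers all 12 had DSS effects that were higher in ΔNFκB mice by the same test.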

How the results depend on the processing

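Groups of 2 and depths of 9229861 to 16935961 counts limit what can be seen. Of 1327 alternative values, 1138 kept their direction and side of the threshold, 91 lost the call, 33 gained one and 65 changed sign; none of the 65 was past 0.05 and the largest was 0.39 in size. The cause of these changes was not tested. Some alternatives use fewer samples, some test fewer or more genes, and others keep all 8 libraries and the same 17522 genes. Without a count filter 30454 genes were tested, and with 1 library left out 18036 to 18767. Members called with 1 library left out numbered 1 to 3 for DSS in WT mice, 1 to 3 for DSS in ΔNFκB mice, 0 for the genotypes without DSS, 0 to 3 for the genotypes after DSS and 0 to 3 for the difference of DSS effects. With the compared groups only it was 1 for DSS in WT mice. For DSS in ΔNFκB mice it was 1 with DESeq2 and 1 with the replicate block, and for the genotypes after DSS 1 with limma-voom. For the difference of DSS effects it was 1 with RLE factors, 2 with DESeq2, 3 without a count filter, 3 with the replicate block (Cdkn1a, Ccng1 and Trp53inp1), 3 with a sex term and 1 without ribosomal RNA-like and related genes.

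Same-numbered libraries were not paired by the labels, and their deviations correlated at -0.126 to 0.244 between groups, so the replicate block is only an alternative. Under the block Trp53 in ΔNFκB mice with DSS was -0.0075 and Mdm2 between untreated genotypes 0.0087. With a sex term the sign changed for DSS in WT mice in Phlda3 (-0.37) and Bax (0.034), for DSS in ΔNFκB mice in Trp53 (-0.058), Ccng1 (0.060), Zmat3 (-0.39) and Ppm1d (0.0097), between untreated genotypes in Phlda3 (0.21) and Aen (-0.13), and in the difference for Aen (0.15). Ccng1 in ΔNFκB mice with DSS was 0.0058 with RLE factors, 0.0058 with DESeq2, 0.0094 without a filter, 0.0051 without ribosomal RNA-like and related genes and 0.0023 with the compared groups only. Without those genes Bax in WT mice was 0.017 and Aen between genotypes after DSS -0.022 (-0.033 with the compared groups only). With limma-voom Trp53 in ΔNFκB mice was -0.011 and Mdm2 between untreated genotypes 0.0096. Without a filter Aen was -0.0047 between untreated genotypes and 0.0058 in the difference.

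With each library left out, values that crossed 0 spanned these ranges. For DSS in WT mice they were -0.012 to 0.56 for Mdm2, -0.33 to 0.60 for Phlda3 and -0.11 to 0.065 for Bax. For DSS in ΔNFκB mice they were -0.25 to 0.25 for Trp53, -0.18 to 0.16 for Ccng1, -0.49 to 0.15 for Sesn2 and -0.060 to 0.25 for Zmat3. Between untreated genotypes they were -0.17 to 0.018 for Trp53, -0.65 to 0.32 for Cdkn1a, -0.28 to 0.28 for Mdm2, -0.75 to 0.19 for Phlda3, -0.16 to 0.23 for Aen and -0.081 to 0.38 for Zmat3. Between genotypes after DSS they were -0.087 to 0.35 for Trp53, -0.045 to 0.19 for Mdm2, -0.033 to 0.38 for Ccng1, -0.081 to 0.10 for Aen and -0.11 to 0.058 for Zmat3. In the difference they were -0.036 to 0.42 for Trp53, -0.24 to 0.33 for Mdm2, -0.25 to 0.14 for Aen and -0.44 to 0.023 for Zmat3. All genes called between untreated genotypes numbered 68, and 265 with DESeq2, 322 without a filter, 176 with a sex term, 0 with the replicate block and 0 with the compared groups only. With a sex term the DSS effect in ΔNFκB mice had 3343 calls in place of 6199.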

Other observations

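Trp63 and Trp73, the p53 family members, reached at most 0.631 and 1.10 CPM in any library, and Cdkn2a, whose product Arf restrains Mdm2, was counted in 1 of 8 libraries, at 0.0789 CPM. Trp53cor1, a noncoding target next to Cdkn1a, was at 0 to 0.239 CPM. A count of 3 in 1 library, the limit that a count of 0 allows, was 0.201 to 0.309 CPM, and none of these 4 genes passed the filter on low counts.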
